A study of Mus musculus with 2 samples.

Results

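Cell cycle genes were followed through the cell classes of injured mouse muscle. The 40 members were given as a list and chosen by gene name from the 27998 genes of the count tables. They comprised 3 D-type cyclins, 14 genes of the G1/S transition and DNA synthesis, 22 genes of G2 and mitosis (G2/M) and the tubulin-binding gene Stmn1. Each was summed over the cells of an annotated class and day, and over barcodes called as cells that the deposited annotation leaves out.

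Single-cell RNA sequencing (10x Chromium v3) was performed on the whole tibialis anterior of the hind limb, dissociated after an injury made with notexin. Notexin is a phospholipase from snake venom that destroys myofibres. There was 1 library at 2 days and 1 at 7 days after injury, each from 1 mouse, and no uninjured library is analysed here. The labels give both mice as C57Bl/6 females of 7 months. The annotation instead gives males, of 4 months at day 2 and of 7 months at day 7, and 6575 and 4856 counts of 4 Y-linked genes against 5 and 1 of Xist go against the female label. Day, mouse, library and the age given in the annotation cannot be told apart.

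With 1 library a day there is no replicate check and no test. Parentheses hold 95% intervals, which reflect the number of counts, or for shares of barcodes the number of barcodes, and no spread between animals or libraries. Levels are given as CPM, the share of a class's unique molecular identifier counts scaled to 1000000. The day 2 library held 3208 annotated cells and 680 absent barcodes that met the limits on barcodes (genes, transcripts, mitochondrial counts), and the day 7 library held 3221 and 477. Annotated cells had median depths of 9010 and 6557 counts, absent barcodes 4546 and 2879. The libraries shared 4 barcode sequences.

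A dividing cell passes through G1, S, G2 and mitosis. D-type cyclins, induced by growth signals, open the way out of G1 with their kinases. The E2F factors then switch on genes for replication licensing and nucleotide supply. A later wave, driven by the MuvB complex with B-Myb and FOXM1, supplies the mitotic cyclins, kinases and spindle proteins, most of which are destroyed at the end of mitosis. After muscle injury, satellite cells, fibro-adipogenic progenitors (FAPs), endothelial cells and immune cells are all known to divide.

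Promoters were read for 32 of the 40 members from RefSeq (GRCm38.p6), as the 250 bases before each gene start. Ccnd1, Ccnd2, Ccne2, Mcm4, Ccna2, Aurkb, Tpx2 and Stmn1 were not among them. The letters CCAAT, on either strand, stood in 17 of 19 G2/M promoters (89.5%) and 8 of 12 S-phase promoters (66.7%), against 33.8% of all 32851 promoters. The letters TTTGAA or TTCGAA, known as a cell cycle homology region (CHR), stood in 8 of 19 G2/M promoters (42.1%) and 2 of 12 S-phase promoters (16.7%), against 17.1% of all. E2F-type letters (TTCCCGC, and its variants that read TTGGCGC, or else TTCGCGC, or finally TTGCCGC) stood in 6 of 12 S-phase promoters (50%) and 4 of 19 G2/M promoters (21.1%), against 7.89% of all. CCAAT and E2F matches can overlap, as can matches on opposite strands, and a match is a description of the letters and not of a bound site. Those of 6 genes are shown with all 3 kinds of match in capitals: the kinase Cdk1, the topoisomerase Top2a and the ubiquitin carrier Ube2c for G2/M, Cenpa because its levels differed from those of the other G2/M genes, and the helicase subunits Mcm5 and Mcm6 for S phase.
Cdk1: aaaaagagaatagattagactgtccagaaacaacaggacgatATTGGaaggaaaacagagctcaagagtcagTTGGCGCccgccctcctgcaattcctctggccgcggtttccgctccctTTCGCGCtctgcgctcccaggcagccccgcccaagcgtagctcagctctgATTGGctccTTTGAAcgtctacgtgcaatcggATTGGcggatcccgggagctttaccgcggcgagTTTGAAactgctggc
Top2a: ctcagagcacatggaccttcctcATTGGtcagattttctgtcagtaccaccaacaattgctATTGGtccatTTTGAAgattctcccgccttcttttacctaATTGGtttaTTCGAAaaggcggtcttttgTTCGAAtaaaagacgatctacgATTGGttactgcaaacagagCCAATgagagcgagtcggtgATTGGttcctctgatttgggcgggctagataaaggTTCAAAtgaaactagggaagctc
Ube2c: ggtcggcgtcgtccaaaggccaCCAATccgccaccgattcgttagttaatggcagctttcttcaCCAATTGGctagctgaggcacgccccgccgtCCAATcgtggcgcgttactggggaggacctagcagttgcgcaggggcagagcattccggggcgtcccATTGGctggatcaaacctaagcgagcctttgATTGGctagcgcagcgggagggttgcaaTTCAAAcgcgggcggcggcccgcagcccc
Cenpa: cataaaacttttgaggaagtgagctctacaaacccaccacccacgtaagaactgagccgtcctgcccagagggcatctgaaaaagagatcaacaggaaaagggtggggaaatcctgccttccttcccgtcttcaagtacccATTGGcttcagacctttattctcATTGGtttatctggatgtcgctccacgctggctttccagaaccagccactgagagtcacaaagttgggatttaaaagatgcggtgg
Mcm5: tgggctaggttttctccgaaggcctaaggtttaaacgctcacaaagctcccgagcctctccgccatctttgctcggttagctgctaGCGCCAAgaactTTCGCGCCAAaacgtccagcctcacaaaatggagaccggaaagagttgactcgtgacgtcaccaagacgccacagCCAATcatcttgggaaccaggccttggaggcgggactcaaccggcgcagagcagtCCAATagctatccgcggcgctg
Mcm6: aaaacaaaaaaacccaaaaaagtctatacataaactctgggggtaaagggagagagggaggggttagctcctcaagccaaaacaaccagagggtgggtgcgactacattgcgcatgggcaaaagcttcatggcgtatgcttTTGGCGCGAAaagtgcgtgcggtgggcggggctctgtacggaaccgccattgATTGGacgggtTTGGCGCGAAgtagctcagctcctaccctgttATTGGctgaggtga
These lie at chr10:69352913-69353162, minus strand (Cdk1), chr11:99024190-99024439, minus strand (Top2a), chr2:164769679-164769928, plus strand (Ube2c), chr5:30666636-30666885, plus strand (Cenpa), chr8:75109259-75109508, plus strand (Mcm5) and chr1:128359706-128359955, minus strand (Mcm6). The Cenpa stretch held CCAAT matches and neither of the other kinds, and those of Mcm5 and Mcm6 held E2F-type and CCAAT matches without a CHR.

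To follow the mitotic members by barcode, barcodes were thinned to 2000 counts, and those with at least 3 counts over the 22 G2/M genes are called G2/M-high. At day 7 there were 128, and before thinning they held 1 to 22 of the 22 genes, with a median of 19. At day 2 there were 17, with 1 to 22 and a median of 14. The cut itself favours barcodes with many of these genes, so these numbers are a description. G2/M-high barcodes were also deeper, with medians of 13821 and 6422 counts at day 7, and the part of depth in this was not tested. The cut is a point on a range: at day 7, 48 annotated cells had 2 counts and 10 had exactly 3, and among absent barcodes the numbers were 6 and 5. At day 2 all 6 G2/M-high annotated cells had exactly 3 counts, with 38 just below, and 1 of the 11 absent ones had exactly 3, with 10 just below.

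Most G2/M transcripts of day 7 lay in barcodes that have no annotation. At day 7 absent barcodes held 10.5% of all counts and 67.5% (66.8 to 68.3) of the G2/M counts. At day 2 they held 14.3% of all counts and 46.2% (44.6 to 47.7) of the G2/M counts. The S-phase genes stood between, with a day 2 share of 29.8% (29 to 30.6) and a day 7 share of 39.3% (38.3 to 40.3). The D-type cyclins were closer to the share of all counts, with 16.3% (15.6 to 16.9) and 16.9% (16.2 to 17.6), and their day 7 level in absent barcodes was 1.74 (1.66 to 1.83) times that in annotated cells. Stmn1, which destabilises microtubules, had 40.9% (38.3 to 43.5) and 59% (57.4 to 60.6) of its counts there.

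Within the groups the members differed. At day 7 the 22 G2/M genes ranged from 40.8% for Cenpa to 79% for Hmmr, a spindle-associated protein, with a median of 69.2%. At day 2 they spread from 13.6% for Cenpa to 89.7% for the checkpoint kinase Bub1. Among the 14 S-phase genes, Rrm2 and Tk1, which make deoxynucleotides, had 62.4% and 62.2% in absent barcodes at day 7, above the other S-phase genes, and Pcna, the sliding clamp of DNA polymerases, had the lowest share at 21%.

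**Figure D1:**
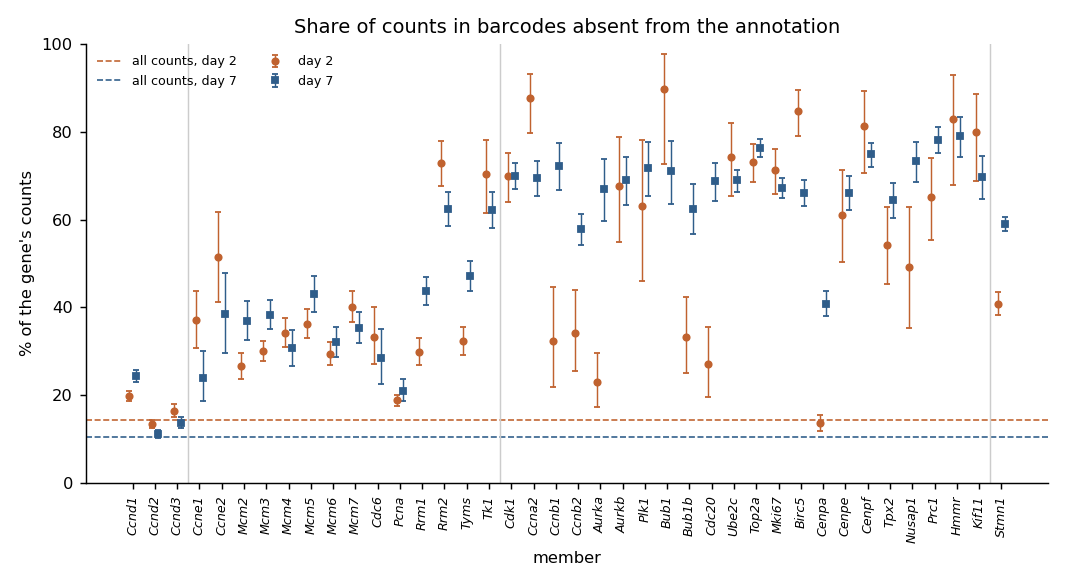
Percent of each member's counts in barcodes that are called as cells, meet the limits and are absent from the annotation, by member on the horizontal axis, with 95% Clopper-Pearson intervals; dashed lines give the same percent for all counts. At day 7 every G2/M gene lies above the line at 10.5%, and Cenpa, at 40.8%, is the lowest of them.

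Over all lineages, the 22 G2/M genes summed to 3143 CPM (3083 to 3205) in absent barcodes and 177 CPM (172 to 182) in annotated cells at day 7, a fold of 17.8 (17.2 to 18.4). All 22 were at least 2-fold higher in absent barcodes, as were 14 of 14 S-phase genes and 1 of 3 D-type cyclins. Of all genes with 20 or more counts over both groups, the base of every such percent given here, 7.66% were. The median log2 ratio was 4.27 over the G2/M genes and 0.08 over all genes tested. As a mean over cells, in which each barcode counts the same, the log2 ratio of the G2/M sum was 3.44 against 4.15 at day 7 and 1.11 against 2.36 at day 2. At day 2 the G2/M sums were 335 and 65.3 CPM, a fold of 5.13 (4.82 to 5.45). There, 20 of 22 G2/M and 13 of 14 S-phase genes were at least 2-fold higher, against 5.17% of all genes. Of the G2/M genes, 16 reached 20 counts in annotated cells alone, and 14 of these 16 were higher. A gene that reaches 20 counts only through the group where it is high had to differ, so below the counts are given for genes that reach 20 in annotated cells alone. The percent of all genes keeps its base of 20 counts over both groups, so members and all genes stand there under unlike limits.

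The number of G2/M-high barcodes showed the same split. At day 7 they were 80 of 360 (22.2%, 18 to 26.9) among absent barcodes and 48 of 3098 (1.55%, 1.14 to 2.05) among annotated cells. Under the stricter limits of 1500 genes and 10% mitochondrial counts, the absent share at day 7 was 39.2%. The day 2 numbers were 11 of 604 (1.82%, 0.913 to 3.24) and 6 of 3004 (0.2%, 0.0733 to 0.434). Without thinning, 20.8% of absent barcodes and 6.77% of annotated cells at day 7, and 9.71% and 7.67% at day 2, had at least 3 G2/M counts. Barcodes under 2000 counts were left out of the thinned shares, 76 absent and 204 annotated at day 2 and 117 and 123 at day 7. Neutrophils, which do not divide, had 1 of 537 (0.186%, 0.00471 to 1.03) at day 2, with a median depth of 2351 counts, and a share near that is read as background. The annotated share at day 2 was at this level. Of all G2/M-high barcodes, 80 of 128 at day 7 and 11 of 17 at day 2 were absent from the annotation.

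**Figure D2:**
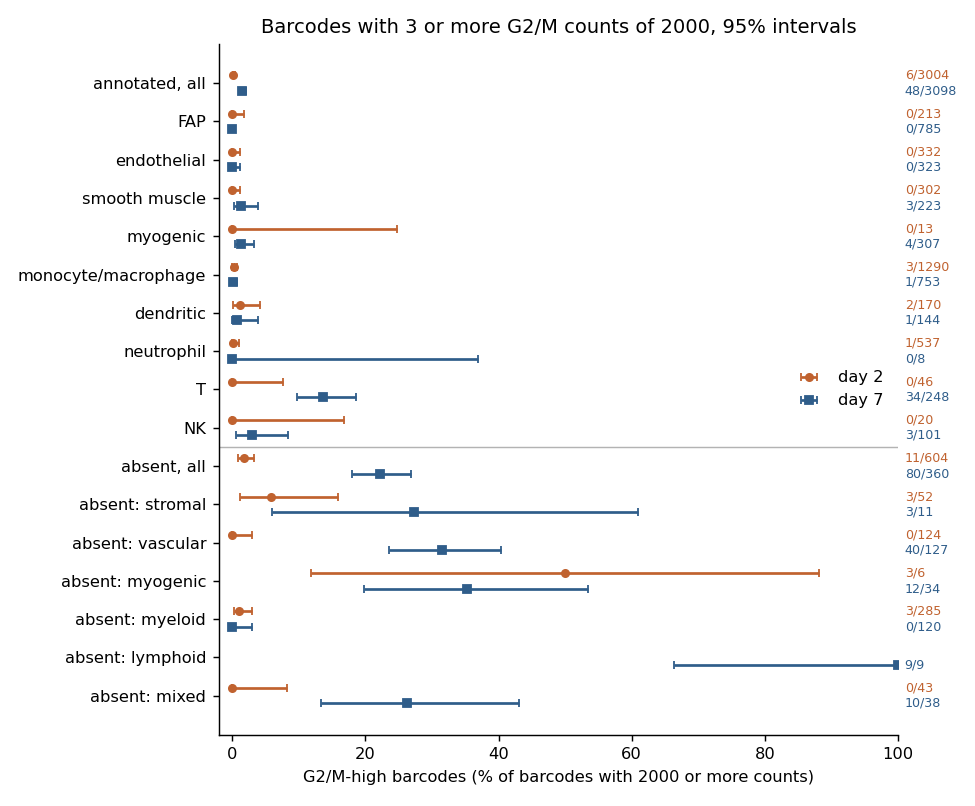
Percent of barcodes with at least 2000 counts that held 3 or more G2/M counts after thinning, with 95% Clopper-Pearson intervals, for annotated classes (above the line) and for absent barcodes by the lineage their markers give (below it); numbers at the right are G2/M-high barcodes of all. Annotated FAPs and endothelial cells are at 0 on both days, and T cells at day 7 (34 of 248) and several absent lineages stand apart.

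The lineage of an absent barcode was read from marker genes, none of which is a member. The same reading gave the annotated lineage for 94.1% of annotated cells at day 2 and 89.8% at day 7. It did so for only 4 of 22 and 142 of 312 myogenic cells, 61 of 100 lymphoid cells at day 2 and 1 of 10 neutrophils at day 7. Some absent barcodes of these lineages may therefore stand under mixed, unread or another lineage. Barcodes with markers of more than 1 lineage made up 6.32% and 8.39% of absent barcodes and 1.4% and 4.69% of annotated cells. Per the methods of the study, putative doublets and a cluster called noisy were taken out before annotation. Which step removed a given barcode was not tested.

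At day 7 the largest group was vascular. Among absent vascular barcodes, 40 of 127 (31.5%, 23.5 to 40.3) were G2/M-high, against 3 of 546 (0.549%, 0.113 to 1.6) among annotated vascular cells. The G2/M sum was 4433 CPM (4316 to 4552) against 79.5 CPM (71.4 to 88.3), a fold of 55.7 (50 to 62.3), and 7 of 7 genes with 20 counts in annotated cells were at least 2-fold higher, against 6.05% of all genes. The other 15 reached 20 counts only through the absent barcodes. The S-phase sum was 4.76 (4.41 to 5.13) times the annotated value, with 9 of 11 such genes at least 2-fold higher, and the D-type cyclin sum 1.03 (0.96 to 1.1) times.

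The highest G2/M members in these vascular barcodes were Top2a at 522 CPM (483 to 564) and the proliferation marker Mki67 at 498 CPM (459 to 539). In annotated vascular cells they were at 4.79 and 5.93 CPM. Ube2c, the ubiquitin carrier of the anaphase-promoting complex, was at 359.9 against 3.19 CPM, and Cdk1, the mitotic kinase, at 329 against 8.66 CPM. Of the S-phase genes, Rrm2 had the widest gap, at 178 against 3.19 CPM, followed by the thymidine kinase Tk1 at 178 against 8.21 CPM. Pcna was at 88.4 and 36.2 CPM.

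Since marker lists assigned the lineage, marker levels in these barcodes describe the assignment and are no separate support for it. In the 40 G2/M-high vascular barcodes, the 7 endothelial markers summed to 5919 CPM with all 7 detected, and 39 of 40 held 3 or more such counts. Smooth muscle and pericyte markers were at 779.6 CPM, against 3335 over all 194 absent vascular barcodes. FAP, myofibre and dendritic markers were at 210.1, 245 and 309 CPM, with 2 of 7 dendritic markers detected. T cell markers were at 9.08 CPM, and NK, B and neutrophil markers had no count. The median depth was 15358 counts in the G2/M-high and 2714 in the rest. As a mean over cells the log2 ratio of the G2/M sum was 4.73 against 5.80. Under the stricter limits 53.8% of absent vascular barcodes were G2/M-high.

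At day 2 the absent vascular barcodes did not share this. Their G2/M sum was 39.3 CPM (26.7 to 55.7) against 31.9 CPM in annotated vascular cells, and G2/M-high barcodes were 0 of 124, which allows a share of up to 2.42%. Erythroid markers took 11320.3 CPM of their counts, and their part in the result was not tested.

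The 52 absent stromal barcodes at day 2 were assigned through markers of FAPs, the Pdgfra-positive mesenchymal cells of muscle, and of tenocytes. The FAP markers had 8255 CPM over 7 markers and at least 3 such counts in 52 of 52. These barcodes were deep, at a median of 23857 counts. Their S-phase sum was 1509 CPM (1445 to 1576) against 463 CPM (445 to 482) in annotated stromal cells, a fold of 3.26 (3.07 to 3.46), and their G2/M sum was 663 CPM (619.9 to 707) against 31.4 CPM, a fold of 21.1 (17.9 to 25.1). Of the 12 S-phase genes with 20 counts in annotated cells, 11 were at least 2-fold higher, against 5.16% of all genes. Among the 22 G2/M genes, 1 had 20 counts in annotated cells, 16 reached 20 only through the absent barcodes and 5 did not reach it, so their number is not read. As a mean over cells the log2 ratio of the G2/M sum was 3.77 against 4.4.

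Of them, 3 of 52 (5.77%, 1.21 to 15.9) were G2/M-high, 14 of 52 held 10 or more G2/M counts before thinning, and 21 of 52 held 3 or more S-phase counts of 2000. The highest S-phase genes were the helicase subunit Mcm3 at 187 CPM (165 to 212) and Pcna at 182 CPM (160.0 to 206). Rrm2, the regulated subunit of ribonucleotide reductase, was at 92.1 CPM against 3.59 in annotated stromal cells. Top2a, at 123 against 3.97 CPM, was the highest G2/M gene. The cyclin Ccnb1 was lower, at 9.58 CPM.

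Absent myogenic barcodes were few. At day 7, 12 of 34 (35.3%, 19.7 to 53.5) were G2/M-high, with a G2/M sum of 4073 CPM (3860.0 to 4294) against 91.6 CPM (81.5 to 103) in annotated myogenic cells, of which 4 of 307 (1.3%, 0.356 to 3.3) were G2/M-high. Of these 4, 3 held markers of a second lineage. With 20 counts in annotated cells, 5 of 5 G2/M genes and 11 of 11 S-phase genes were at least 2-fold higher, against 12.9% of all genes, and 16 more G2/M genes reached 20 counts only through the absent barcodes. Ube2c was the highest, at 619 CPM (538 to 709) against 12.1 CPM. Ube2c shares exon bases with the muscle gene Tnnc2 on the other strand, and 10 more members overlap such a gene (Ccnd1, Ccnd2, Ccnd3, Ccne2, Mcm7, Tk1, Ccna2, Cdc20, Nusap1 and Prc1). Whether counting used strand is not given in the sources used here, so the counts of these members are uncertain. The groups also differed in myofibre markers, at 4458 CPM over the 36 absent barcodes and 85759 CPM in annotated myogenic cells, of which 142 of 312 read as myogenic. Smooth muscle and pericyte markers were at 1669 CPM in the absent and 679 CPM in the annotated ones. In the 12 G2/M-high absent barcodes they were at 2466 CPM, beside 2543 CPM for myogenic markers. The part of these differences in the result was not tested. At day 2 there were 6 such barcodes, and 3 of 6 were G2/M-high, at a median of 29626 counts. The 22 annotated myogenic cells of day 2 had no G2/M count at a median of 2574 counts, and G2/M-high ones were 0 of 13, which allows a share of up to 23.1%.

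In the lymphoid lineage, all 9 absent lymphoid barcodes at day 7 were G2/M-high, with T cell markers at 1898 CPM and the highest levels over all lineages and classes for Top2a at 1134 CPM and Mki67 at 1134 CPM. Of the mixed barcodes at day 7, 10 of 38 (26.3%, 13.4 to 43.1) were G2/M-high. Absent stromal and neural barcodes at day 7 had 3 of 11 (27.3%, 6.02 to 61) and 3 of 5 (60%, 14.7 to 94.7). Absent myeloid barcodes at day 7 had a G2/M sum of 88.6 CPM (63.8 to 119.7) against 94.4 CPM, and G2/M-high barcodes were 0 of 120, which allows a share of up to 2.5%. The day 2 myeloid sums were 229 and 87.6 CPM, the log2 ratio of 1.38 became 0.54 as a mean over cells, and 3 of 285 (1.05%, 0.218 to 3.05) were G2/M-high.

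The balance of S-phase and G2/M counts inside G2/M-high barcodes also varied. S-phase genes made up 54.6% of the S-phase and G2/M counts in the 3 stromal and 51.1% in the 3 myogenic absent barcodes of day 2. At day 7 they made up 21.3% in the 40 vascular, 22.5% in the 9 lymphoid and 10.9% in the 12 myogenic ones. Cyclin B (Ccnb1 or Ccnb2), which drives entry into mitosis, was detected in 112 of 128 G2/M-high barcodes at day 7, and cyclin E (Ccne1 or Ccne2), which drives entry into S phase, in 47, with both in 39. Ccnb1 and Ccnb2 are among the 22 genes of the cut, and Ccne1 and Ccne2 are not. The cut therefore favours cyclin B over cyclin E and G2/M over S-phase counts, and these numbers are a description.

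**Figure D3:**
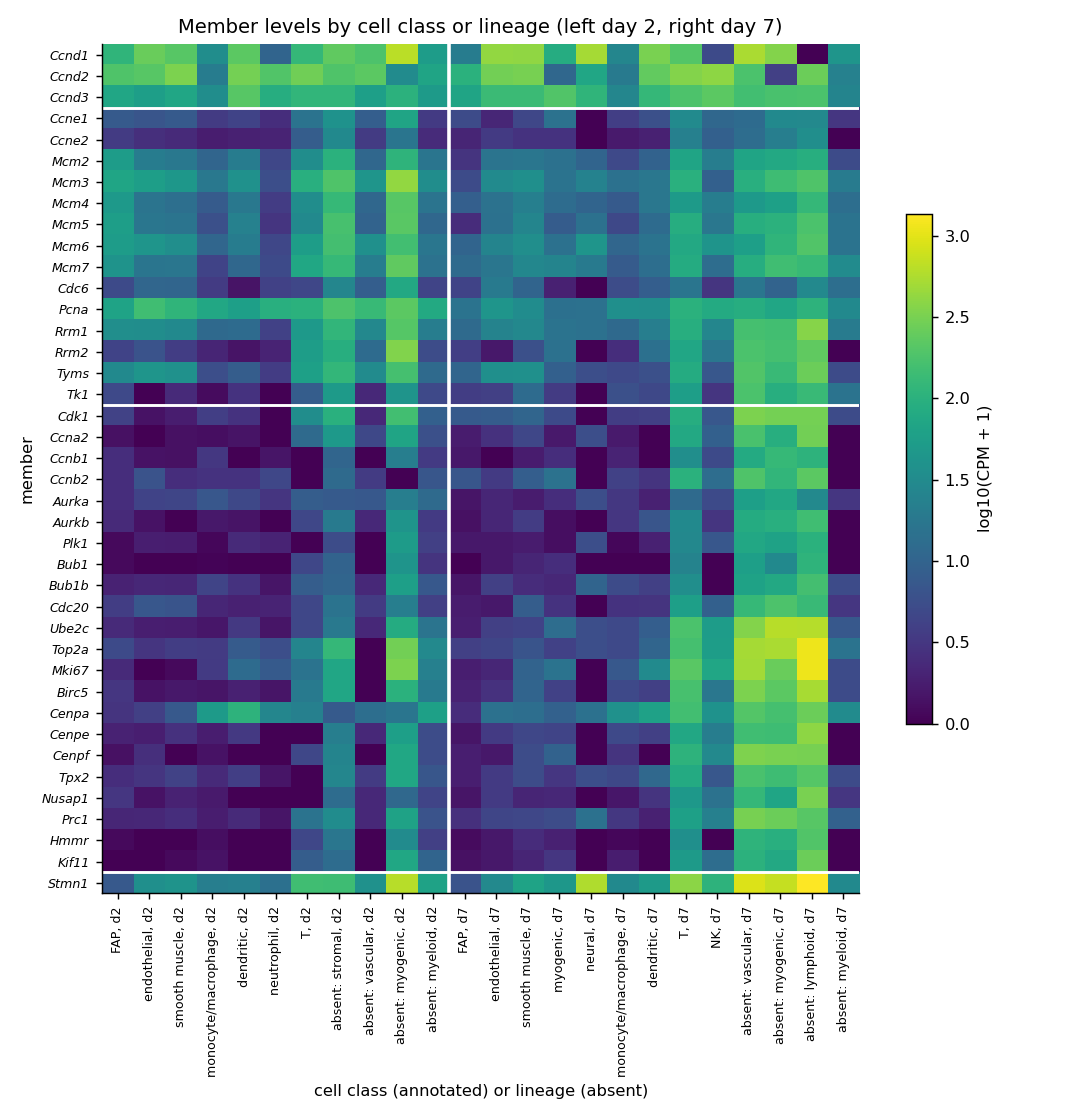
Level of each member as log10(CPM + 1) (colour) in annotated classes and in lineages of absent barcodes, day 2 left and day 7 right of the vertical line; horizontal lines separate D-type cyclins, S-phase genes, G2/M genes and Stmn1. G2/M rows are bright in T cells and in absent vascular, myogenic and lymphoid barcodes at day 7 and dark in most annotated classes, while D-type cyclins are bright nearly everywhere.

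Among annotated classes, T cells at day 7 had the most G2/M counts. Of T-labelled barcodes, 34 of 248 (13.7%, 9.68 to 18.6) were G2/M-high, and the G2/M sum was 1809 CPM (1744 to 1876), or 775 CPM as a mean over cells. The share was 7.51% when thinned to 1000 counts and 23.5% under the stricter limits. The highest members were Mki67 at 214 CPM (192 to 238), Ube2c at 175 CPM (156 to 197) and the survivin gene Birc5 at 168 CPM (149 to 189). The day 2 sum was 184 CPM (136 to 242) in 50 cells, and G2/M-high barcodes were 0 of 46, which allows a share of up to 6.52%. The fold was 9.86 (7.46 to 13.3), with 6 of the 22 genes at 0 counts at day 2 and 21 of 22 genes at least 2-fold higher and 0 lower, against 10.9% of all genes higher and 8.9% lower. All 22 reached 20 counts only through day 7, with 50 counts in all at day 2, so nothing is read from their number. S-phase genes had a fold of 1.52 (1.3 to 1.8).

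The T label held other cells. At day 2 the markers of 20 of the 50 barcodes read as lymphoid, and basophil and mast cell markers summed to 2775 CPM against 396 for T cell markers. At day 7, 239 of 293 read as lymphoid and 20 as vascular, and G2/M-high shares were 21 of 207 (10.1%, 6.39 to 15.1) in the former and 11 of 20 (55%, 31.5 to 76.9) in the latter. In the 34 G2/M-high T-labelled barcodes endothelial markers summed to 2509 CPM and T cell markers to 1474. Restricted to barcodes that read as lymphoid, the G2/M sum was 111 CPM at day 2 and 1591 CPM at day 7.

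Natural killer (NK) cells at day 7 had a G2/M sum of 389 CPM (336 to 448), and 3 of 101 (2.97%, 0.617 to 8.44) were G2/M-high. Cells labelled smooth muscle had 95.2 CPM (83.9 to 108) at day 7 and 32.5 CPM (27.7 to 37.8) at day 2, a fold of 2.93 (2.4 to 3.58), and 3 of 223 (1.35%, 0.278 to 3.88) were G2/M-high at day 7. Taking the mean over cells moved the log2 ratio from 1.55 to 0.87. Both sums lay below free (ambient) RNA, read from barcodes with 1 to 100 counts, which was at 51.1 CPM at day 2 and 256 CPM at day 7, and its part in the ratio was not tested. The label also held endothelial markers at 7423 CPM, above its own smooth muscle and pericyte markers at 4482 CPM.

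Cenpa, the centromeric histone, went against its group. It was at 50.6 CPM (47.2 to 54.1) in monocytes and macrophages at day 2, out of a G2/M sum of 79.8 CPM, and at 106 CPM (92.8 to 121) in dendritic cells, out of 147 CPM. Top2a was at 2.49 and 6.98 CPM in the same cells. The G2/M sum of annotated myeloid cells at day 2 was therefore mostly Cenpa, and among monocytes and macrophages 3 of 1290 (0.233%, 0.048 to 0.678) were G2/M-high. At day 7 Cenpa was at 37.8 CPM (33.5 to 42.4) and 60.6 CPM (46.6 to 77.6) in these classes.

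Levels of G2/M genes in annotated FAPs and endothelial cells lay below those of free RNA. Against the ambient sums of 51.1 and 256 CPM, annotated FAPs were at 31 CPM (26.3 to 36.2) and 28.7 CPM (25.2 to 32.6), and endothelial cells at 30.5 CPM (24 to 38.3) and 54.2 CPM (43.7 to 66.6). At day 2, G2/M-high FAPs were 0 of 213, which allows a share of up to 1.41%, and at day 7 0 of 785, which allows a share of up to 0.382%. For endothelial cells the day 2 number was 0 of 332, which allows a share of up to 0.904%, and the day 7 number 0 of 323, which allows a share of up to 0.929%.

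S-phase genes in FAPs went from 472 CPM (454 to 492) at day 2 to 85.4 CPM (79.2 to 92) at day 7, a fold of 0.181 (0.166 to 0.197). The median depth of FAPs went from 24329 to 8429 counts, and FAP markers from 10310 to 77659 CPM. Tenocyte markers went from 130 to 1115 CPM, myofibre markers from 9.74 to 548 CPM and neutrophil markers from 85.7 to 19.3 CPM. The part of these differences in the fold was not tested. In ambient RNA the S-phase sum was 148 CPM at day 2 and 167 CPM at day 7, so the day 7 FAP level lay below it. At least 2-fold lower were 10 of 14 genes and 0 were higher, against 14% of all genes lower and 25.6% higher. A lower gene can reach the counts needed for a call through day 2 alone, so the number of lower genes is not read. The median log2 ratio was -1.76 over the S-phase genes and 0.21 over all genes tested. The 6 subunits of the MCM helicase, which unwinds DNA ahead of the fork, were all among the lower genes. Mcm5 went from 56.5 CPM (50.2 to 63.4) to 1.47 CPM (0.761 to 2.57), a log2 ratio of -5.26 (-6.23 to -4.44), and Mcm2 from 53.4 to 1.96 CPM. Rrm2, at 3.31 and 2.82 CPM, and Cdc6, a licensing factor, at 4.09 and 3.31 CPM, were low on both days.

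The G2/M sum of FAPs had a day 7 to day 2 fold of 0.927 (0.755 to 1.14), so that no difference could be detected with these counts. Of its 22 genes 6 had 20 or more counts, of which Cdk1 and Ccnb2 were at least 2-fold higher and Cdc20 lower. Over all genes tested, 25.6% were higher and 14% lower. Of the 6 genes, 5 reached 20 counts only through day 7, Cdk1 and Ccnb2 among them, so their number is not read. By subtype at day 2, stem-labelled FAPs had an S-phase sum of 814 CPM, pro-remodeling FAPs 361 CPM and adipogenic FAPs 354 CPM. At day 7 the values were 104, 82.7 and 88.1 CPM. Scaling without mitochondrial and ribosomal protein genes shifts every FAP log2 ratio by -0.16 and those of the other classes by -0.06 to 0.03.

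Other pathway genes in FAPs were taken from 4 lists, which were chosen with earlier results of these data known. Over all genes tested, 14% were lower and 25.6% higher. Of the 19 further replication genes with 20 counts, out of 20, 14 were at least 2-fold lower at day 7 and 0 higher. Of 14 further mitotic genes with 20 counts, out of 32, 4 were lower and 1 higher. Of 15 regulators, out of 20, 5 were lower and 1 higher. Of 12 inhibitors, out of 14, 7 were higher and 2 lower. Among genes with 20 counts in day 2 cells, 6 of 11 inhibitors, 0 of 8 mitotic genes and 0 of 12 regulators were higher. Lower genes can reach 20 counts through day 2 alone, so the numbers of lower genes in these lists are not read. Cdkn1c (p57), an inhibitor of cyclin-dependent kinases, went from 13.1 CPM (10.1 to 16.6) to 1088 CPM (1066 to 1111), a log2 ratio of 6.38 (6.04 to 6.75). Cdkn1b (p27) went from 13.4 to 67.9 CPM and Cdkn2c (p18) from 2.14 to 12.1 CPM, whereas Cdkn1a (p21) went down, from 145 to 51.5 CPM. The genes with the most counts over both libraries in each list had these FAP levels: Btg1, an antiproliferative gene, at 202 and 165 CPM, Cdk4, the kinase partner of D-type cyclins, at 201 and 103 CPM, the histone mRNA binder Slbp at 65.3 and 38.2 CPM and the chromatin protein Hmgb2 at 62.3 and 43.4 CPM. Cdkn2a had 0 counts at day 2 and 6 at day 7.

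In endothelial cells the S-phase sum went from 409 CPM (384 to 436) to 241 CPM (218 to 266), a fold of 0.59 (0.524 to 0.662). Markers of other cells also differed between the days in this class. Myofibre markers went from 85.8 to 1954 CPM and FAP markers from 34.2 to 285 CPM. Erythroid markers went from 1624 to 809 CPM and smooth muscle and pericyte markers from 388 to 327 CPM. Their part in the S-phase and D-type cyclin ratios was not tested. Of the 10 of 14 genes with 20 counts, 1 was at least 2-fold lower and 0 higher, against 9.5% of all genes lower and 14.9% higher. That gene was Pcna, at 147 CPM (132 to 163) and 41.7 CPM (32.5 to 52.7). Cdkn1a went from 1119.9 to 242 CPM and Cdkn1c from 60.6 to 358 CPM.

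In monocytes and macrophages the S-phase sum had a fold of 0.733 (0.677 to 0.794) and the G2/M sum 1.09 (0.995 to 1.2), whose log2 ratio of 0.13 became -0.05 as a mean over cells. By subtype, S-phase sums were 109.9 to 183.2 CPM at day 2 and 84.8 to 129.6 CPM at day 7. Ambient S-phase sums were 148 and 167 CPM, and their part in the fold was not tested. Of the 16 of 22 G2/M genes with 20 counts, 8 were at least 2-fold higher at day 7 and 2 lower, against 19.3% and 12.8% of all genes. Of these 16, 7 reached 20 counts only through day 7, so the number of higher genes is not read. Among the 9 with 20 counts in day 2 cells, 2 were higher. The 8 higher genes were low at day 7, from Cenpf at 1.99 CPM to Mki67, and each was below its level in ambient RNA. Mki67 was at 6.25 CPM in these cells and 28.2 CPM in ambient RNA. Of monocytes and macrophages at day 7, 1 of 753 (0.133%, 0.00336 to 0.738) were G2/M-high.

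**Figure D4:**
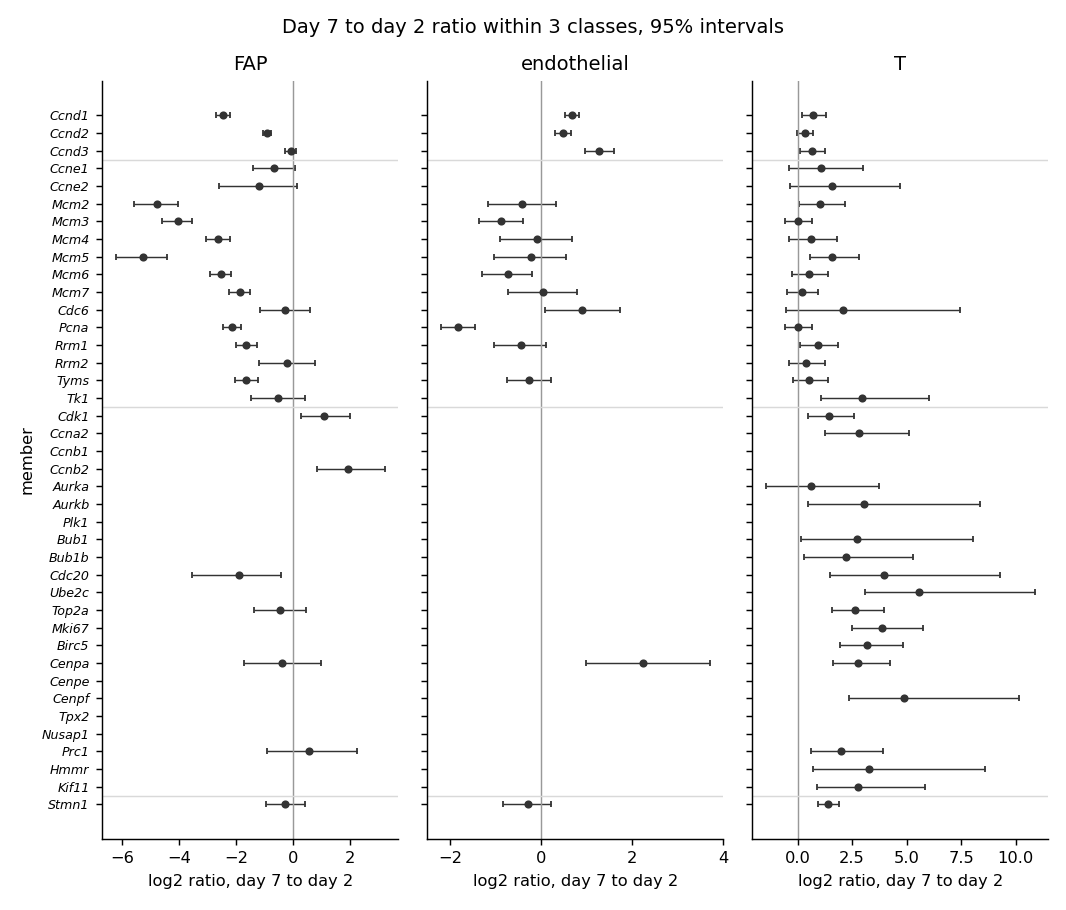
Log2 ratio of day 7 to day 2 levels (horizontal axis) for members with 20 or more counts over both days in FAPs, endothelial cells and T cells, with 95% intervals that cover counting error only; members without a count on 1 day are not drawn. The MCM genes lie left of 0 in FAPs, the D-type cyclins right of 0 in endothelial cells and the drawn G2/M genes right of 0 in T cells, where the interval of Aurka includes 0.

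The makeup of the D-type cyclins differed among many of the classes. In FAPs the sum went from 369 CPM (353 to 386) to 187 CPM (177 to 196), and Ccnd1 went from 110.5 to 20 CPM while Ccnd3 was at 70.5 and 66.3 CPM. In endothelial cells it went the other way, from 525 CPM (497 to 555) to 846 CPM (803 to 892). Ccnd1 there was 49.8% (47 to 52.5) of D-type cyclin counts at day 2 and 49.6% (47 to 52.3) at day 7 while its level went from 261 to 420.2 CPM. Ccnd2 went from 39.6% (36.9 to 42.3) to 34.2% (31.8 to 36.8) and Ccnd3 from 10.7% (9.03 to 12.5) to 16.1% (14.3 to 18.1). Smooth muscle cells went from 605 to 851 CPM.

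NK cells at day 7 had almost no Ccnd1, with 0.66% (0.08 to 2.36) of their D-type cyclin counts against 64% (58.3 to 69.4) for Ccnd2. Neutrophils at day 2 were similar, with 3.16% (1.89 to 4.95) Ccnd1 and 66.4% (62.4 to 70.3) Ccnd2. Neural cells at day 7 were mostly Ccnd1, with 74.2% (66.4 to 80.9). Monocytes and macrophages had sums of 87.2 and 70.2 CPM, below the ambient sums of 107 and 168 CPM, while dendritic cells were at 727 and 677 CPM.

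Ccnd3, known to stay on as myoblasts leave the cell cycle, led in annotated myogenic cells at day 7. In annotated myogenic cells at day 7, Ccnd3 was 66.3% (63.2 to 69.4) of D-type cyclin counts, at 192 CPM (177 to 207), and Ccnd1 was 30.1% (27.2 to 33.2). In absent myogenic barcodes Ccnd1 was 67.4% (60.1 to 74.2) and Ccnd3 32% (25.3 to 39.4), so the leading D-type cyclin differed beyond counting error, beside the difference in myofibre markers given above. At day 2 Ccnd1 led in absent ones, with 82.6% (75.5 to 88.3). In annotated ones it had 59.1% (36.4 to 79.3) of 22 counts and Ccnd2 27.3% (10.7 to 50.2), so no lead is read there. Erythroid markers summed to 27350 CPM in these annotated cells and myogenic markers to 832 CPM. Ccnd3 had 13.6% (2.91 to 34.9) in annotated and 13.4% (8.4 to 20) in absent ones. At day 7 Ccnd3 was at 172 CPM in absent barcodes, and Ccnd1 at 362 CPM (300.3 to 432) against 87 CPM. Ccnd2 was low in both, at 10.2 and 2.96 CPM. Cdkn1c was high in both, at 1097 and 1286 CPM.

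**Figure D5:**
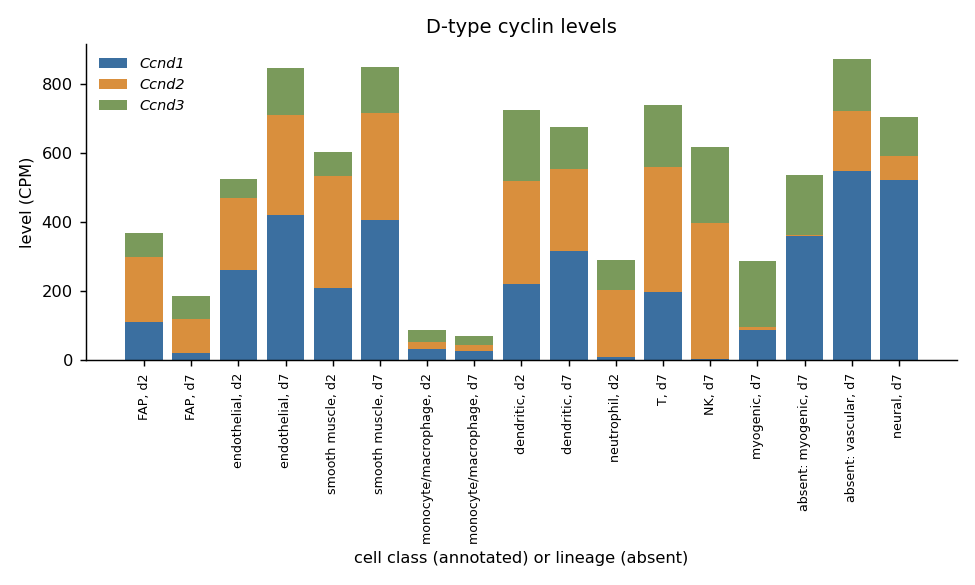
Levels of the 3 D-type cyclins in CPM, stacked, for annotated classes and for absent barcodes read as myogenic or vascular, at day 2 (d2) and day 7 (d7). FAPs have less Ccnd1 at day 7, endothelial and smooth muscle cells more, and annotated myogenic cells at day 7 are led by Ccnd3 while absent myogenic barcodes are led by Ccnd1.

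Stmn1 followed the G2/M genes in absent barcodes, at 932 CPM (879 to 988) in vascular ones at day 7 and 51.1 CPM in annotated vascular cells. Neural cells were the exception, with Stmn1 at 583 CPM (485 to 694) at day 7, a G2/M sum of 65.3 CPM and 0 of 34 barcodes G2/M-high. T cells at day 7 had 383 CPM and FAPs 5.28 CPM.

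The other pathway lists in absent vascular barcodes at day 7 were counted in the same way. With 20 counts in annotated cells, 7 of 8 further mitotic genes were at least 2-fold higher, 14 of 16 replication genes, 9 of 14 regulators and 3 of 12 inhibitors, with 1 inhibitor lower. Of all genes tested, 6.05% were higher. Hmgb2 was at 1165 against 125 CPM and Cdk4 at 156 against 98 CPM. Cdkn2c was at 116 CPM (97.7 to 137) against 8.21 CPM, and Cdkn1c at 143 against 299 CPM. Cdkn1a, the main p53 target among them, was at 173 and 230.2 CPM. In stromal absent barcodes at day 2, 15 of the 17 replication and 7 of the 8 mitotic genes with 20 counts in annotated cells were at least 2-fold higher, against 5.16% of all genes.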

How the data were processed

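Whole tibialis anterior was dissociated and sequenced as 1 10x v3 library per day. The deposited count matrices hold raw unique molecular identifier counts of 27998 genes, which the authors made with Cell Ranger (3.0.1 in the file headers, 3.1.0 in the submitters' processing notes) on mm10. The deposited corrected matrices hold estimated counts after removal of ambient RNA with SoupX by the authors, and were used for the limits on barcodes and for an alternative. Seurat 3.1.5 is named in the submitters' notes, and cell types are those of the deposited annotation. The methods describe removal of doublets with DoubletFinder and of a noisy cluster, which bears on the annotated cells. No doublet caller was run here, so the share of doublets among absent barcodes was not measured, apart from the reading of mixed markers.

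Barcodes with at least 750 genes and 1000 transcripts and at most 30% mitochondrial counts were kept. They hold 3888 of 4836 called barcodes at day 2 and 3698 of 4889 at day 7. Absent barcodes are called ones without an annotation row. Their lineage was read from marker lists, requiring at least 2 markers above the level that a 10% share of ambient RNA gives, and barcodes with a second lineage at 50% or more of the first were called mixed. For shares, each barcode was thinned to 2000 counts.

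Raw counts were summed per class and scaled to CPM. Intervals are exact (Poisson, Clopper-Pearson or conditional binomial) at 95%, and a count of 0 allows 3 counts. A gene needs 20 counts over both groups to be called 2-fold different. With 1 library per day no test was made. All 40 members are named by the rule of the list, the text describes those with the most counts in each role group and any unlike its group, and other pathway genes come from 4 lists of inhibitors, regulators, replication and mitotic genes. The members and lists were chosen with earlier results of these data known. Scripts were tested on simulated data and ran in Python 3.11.15 with numpy 2.4.6, scipy 1.17.1, pandas 2.3.3 and matplotlib 3.10.9. Alternatives were other limits, SoupX values, scaling without mitochondrial and ribosomal protein genes, means over cells, other cuts and thinning, and leaving out mixed barcodes.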

Additional observations from a re-analysis of the deposited data

Results flagged for a closer look

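D-type cyclins moved apart in 2 classes between the days. Their sum had a day 7 to day 2 log2 ratio of 0.69 in endothelial cells and of -0.99 in FAPs. S-phase genes did likewise, with 0.61 in T-labelled barcodes and -2.47 in FAPs. With 1 library a day, neither difference was tested.

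Barcodes below the limits, which enter no main comparison, also held G2/M counts. Of 996 at day 7 that were absent from the annotation, 13 held 3 or more, or 1.31% (0.697 to 2.22), and the highest held 15. Among 195 annotated barcodes below the limits at day 7 it was 1, or 0.513% (0.013 to 2.82), and these intervals overlap. At day 2 the number was 1 of 619 absent barcodes and 0 of 329 annotated ones.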

How the results depend on the processing

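Over 44 results and 252 alternative values, 184 stayed within the main counting interval and no called direction reversed, and the uncalled G2/M log2 ratio of monocytes and macrophages went from 0.13 to -0.049 as a mean over cells. No paired analysis was possible because each day has 1 library, and no replicate could be left out. The cause of the shifts was not tested. Depth limits low members, since 1 library a day gives counting error only.

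As a mean over cells, the G2/M level of T-labelled barcodes at day 7 was 775 CPM and the S-phase level of FAPs at day 2 448 CPM. Day 7 to day 2 log2 ratios were -0.42 for S-phase and 0.87 for G2/M genes in smooth muscle, -0.12 for D-type cyclins in monocytes and macrophages, and 0.80 for D-type cyclins and 0.85 for S-phase genes in T cells. Absent to annotated log2 ratios of G2/M genes were 1.11 at day 2 and 3.44 at day 7 over all lineages, 4.73 in vascular, 3.77 in stromal and 0.54 in day 2 myeloid barcodes, and those of S-phase genes were 0.69 and 1.5 over all and 1.44 in stromal ones. Ccnd1 was 46.6% of D-type cyclin counts in endothelial cells at day 7.

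At the lineage makeup of annotated cells, the ratios over all lineages were 1.96 and 4.10 for G2/M and 0.89 and 1.96 for S-phase genes at days 2 and 7. With no limits on barcodes they were 2.22, 3.76, 1.23 and 2.10. Under stricter limits they were 2.51, 4.41, 1.44 and 2.68, the vascular ratio 6.12, the T cell G2/M level 2340 CPM, and the G2/M-high shares 39.2% of absent, 53.8% of absent vascular and 23.5% of T-labelled barcodes at day 7. Without mixed barcodes the G2/M ratios were 2.55, 4.35 and, in myogenic ones, 5.98, and the day 2 S-phase ratio 1.49. Within a lineage this removes annotated cells only, since mixed absent barcodes already stand apart. Scaling without mitochondrial and ribosomal protein genes gave 2350 CPM for G2/M genes in T cells, 617 CPM for S-phase genes in FAPs at day 2, and FAP ratios of -1.15 for D-type cyclins and -2.63 for S-phase genes.

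G2/M-high shares of annotated cells at days 2 and 7 were 1.46% and 3.1% with at least 2 counts, 0% and 1.0% with at least 5, 0.0312% and 0.838% thinned to 1000 counts, 7.67% and 6.77% without thinning, and 0.471% and 3.70% with absent barcodes added. Those of absent barcodes at day 2 were 3.48% with 2 counts and 9.71% without thinning, and at day 7 15.5% thinned to 1000. T-labelled barcodes at day 7 had 20.6% with 2 counts, 7.51% thinned to 1000 and 22.2% without thinning, and absent vascular ones 19.1% thinned to 1000 and 22.7% without thinning. Absent stromal ones at day 2 had 50% without thinning. With at least 10 unthinned counts, a cut chosen after seeing the data, the shares were 3.24% and 17.4% of absent, 19.6% of absent vascular and 26.9% of absent stromal barcodes.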
